A study of Caenorhabditis elegans with 8 samples.

Results

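The piRNAs listed between 15 and 16 Mb of chromosome IV of Caenorhabditis elegans are described here, in whole worms of 4 genotypes. Members were the piRNAs of the deposited table that start between positions 15000000 and 15999999 of chromosome IV, with no measured value used to choose them. They number 2472 of the 9742 listed piRNAs, and all are 21 nt long. Their positions match build WBcel235, whose annotation holds 3519 piRNA genes in the same window, and 2450 of the 2472 members matched one of these by position and strand. The window lies inside the larger of the piRNA-rich stretches of chromosome IV. From 13 Mb onwards that stretch holds 8018 listed piRNAs, of which 775 start at 13-14 Mb, 2494 at 14-15 Mb, 1952 at 16-17 Mb and 325 beyond 17 Mb.

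In worms, piRNAs are germline small RNAs that mostly begin with U and are also called 21U-RNAs. Most are made from very small genes of their own, each transcribed by RNA polymerase II downstream of a short conserved motif, and these genes crowd into large clusters on chromosome IV. The upstream sequence transcription complex (USTC), of which PRDE-1 and TOFU-4 are components, acts at these genes. The mature piRNA is bound by the Argonaute protein PRG-1 and guides it to transcripts of foreign and some endogenous genes.

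The question of the series is whether the production of piRNAs depends on casein kinase II. Its 8 libraries came from whole worms: WT untreated, prde-1 untreated, prg-1 untreated, and kin-3 cultured with 500 µM IAA (auxin), with 2 libraries each. The catalytic subunit of casein kinase II is encoded by kin-3. All RNA was treated with the phosphatase PIR-1 before cloning. The kin-3 libraries differ from WT in genotype and in IAA together, and the effects of these cannot be told apart. The sources used here do not give the alleles, the stage of the worms or whether libraries came from separate cultures, so the spread between libraries may be technical. Transcripts of the mutated genes were not measured in these libraries.

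Values were deposited in RPM, that is, reads divided by a library total and multiplied by 1000000. The total was 341001 and 562081 reads for kin-3, 969718 and 699884 reads for prg-1, 1342764 and 913321 reads for WT, and 5337646 and 5608712 reads for prde-1. A single read was therefore worth 2.93 and 1.78 RPM for kin-3, 1.03 and 1.43 RPM for prg-1, 0.745 and 1.09 RPM for WT, and 0.187 and 0.178 RPM for prde-1. Intervals given below are exact 95% intervals on reads pooled over a genotype's 2 libraries and cover counting error only. In whole worms, fewer germ cells and less piRNA per cell cannot be told apart.

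The piRNAs of the window were nearly absent from all 3 mutants. Their summed level was 3469 and 3273 RPM in the WT libraries (3371 ± 139, SD, n = 2). The kin-3 libraries held 14.7 and 14.2 RPM (14.4 ± 0.304), the prde-1 libraries 5.25 and 5.35 RPM (5.30 ± 0.0729), and the prg-1 libraries 18.6 and 15.7 RPM (17.1 ± 2.01). No mutant library came near a WT library. The libraries of the 3 mutants did not overlap each other in this sum. Those of kin-3 and prg-1 rest on few reads, though, and the interval of their pooled ratio, 0.395 to 1.65, spans 1. The WT libraries had 4658 and 2989 reads in the window, those of kin-3 had 5 and 8, those of prde-1 had 28 and 30, and those of prg-1 had 18 and 11.

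The number of piRNAs with at least 1 read was lower in every mutant library as well. WT had 1020 and 864 such piRNAs, kin-3 had 5 and 7, prde-1 had 24 and 26, and prg-1 had 18 and 11. The deepest libraries are those of prde-1. Thinned to the smallest library total, of 341001 reads, WT had an expected 509 ± 4.18 piRNAs with a read, kin-3 4.74 ± 0.364, prde-1 1.79 ± 0.0235 and prg-1 5.84 ± 0.686 (SD, n = 2). For the summed level and for the number, the exact two-sided permutation test of WT against the other 6 libraries gave p = 0.0357 and the exact permutation test over the 4 genotypes gave p = 0.00952. Both are the smallest p these tests can give, with 28 splits and 2520 assignments.

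**Figure D1:**
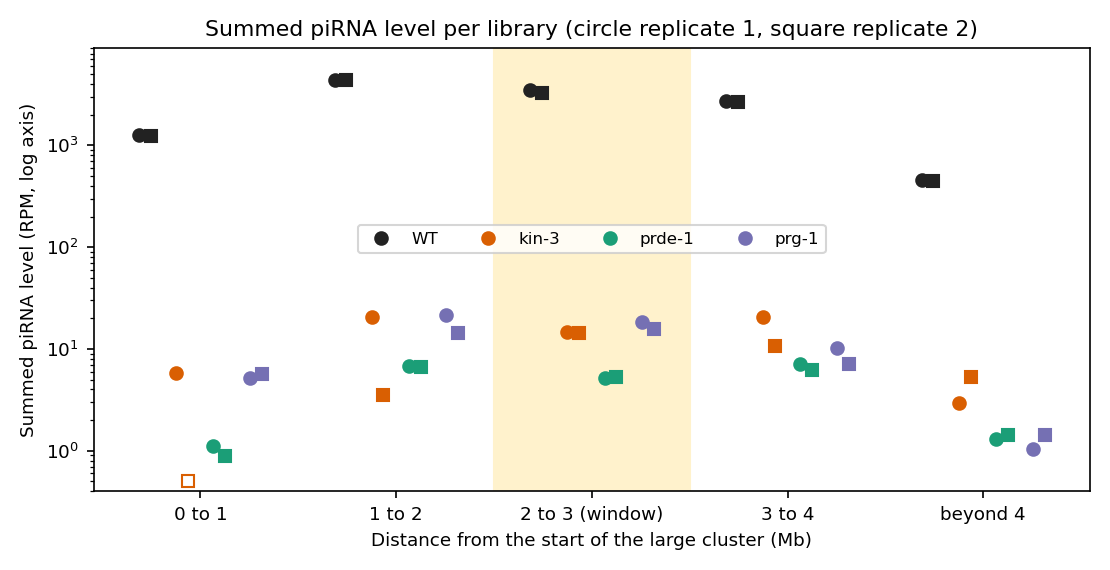
Summed level (RPM, log axis) of the piRNAs in the shaded window and in the other stretches of the large cluster, by distance from its start, with 1 point per library; the open square at the foot of the axis is kin-3 replicate 2, which had 0 reads in that stretch. In the window the WT libraries lie at 3469 and 3273 RPM and every mutant library at or under 18.6 RPM.

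As a percent of WT, the level left in the window was 0.429% for kin-3 (pooled 0.425%, interval 0.226 to 0.727%), 0.157% for prde-1 (pooled 0.156%, 0.119 to 0.202%) and 0.508% for prg-1 (pooled 0.512%, 0.343 to 0.737%). By means of RPM, the window was 233-fold lower in kin-3, 636-fold lower with prde-1 and 197-fold lower with prg-1. Over the remaining large cluster, kin-3 kept 0.397%, prde-1 0.180% and prg-1 0.382%, and for each mutant the counting interval of the window overlapped that of the remaining cluster. The difference between the window and the remaining cluster was not detectable at this depth.

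The order of the mutants by level differed between RPM as deposited and TMM rescaling. In RPM as deposited, the pooled level in the window was 2.72 times higher in kin-3 than in prde-1 (1.37 to 5.02) and 3.28 times higher in prg-1 than in prde-1 (2.02 to 5.20). The ratio of kin-3 to prg-1 was 0.829, and its interval of 0.395 to 1.65 spans 1. After rescaling by TMM factors the percent left was 0.467% for kin-3, 2.20% for prde-1 and 0.989% for prg-1. With these factors prde-1 moved from the lowest to the highest of the 3. TMM takes most piRNAs as unchanged between libraries. Here 97.8 to 98.3% of the 695 tested were called lower in each mutant, so the rescaled values cannot decide the order. With 2 libraries against 2 the smallest exact permutation p is 0.333, so these pairs are given as values.

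**Figure D2:**
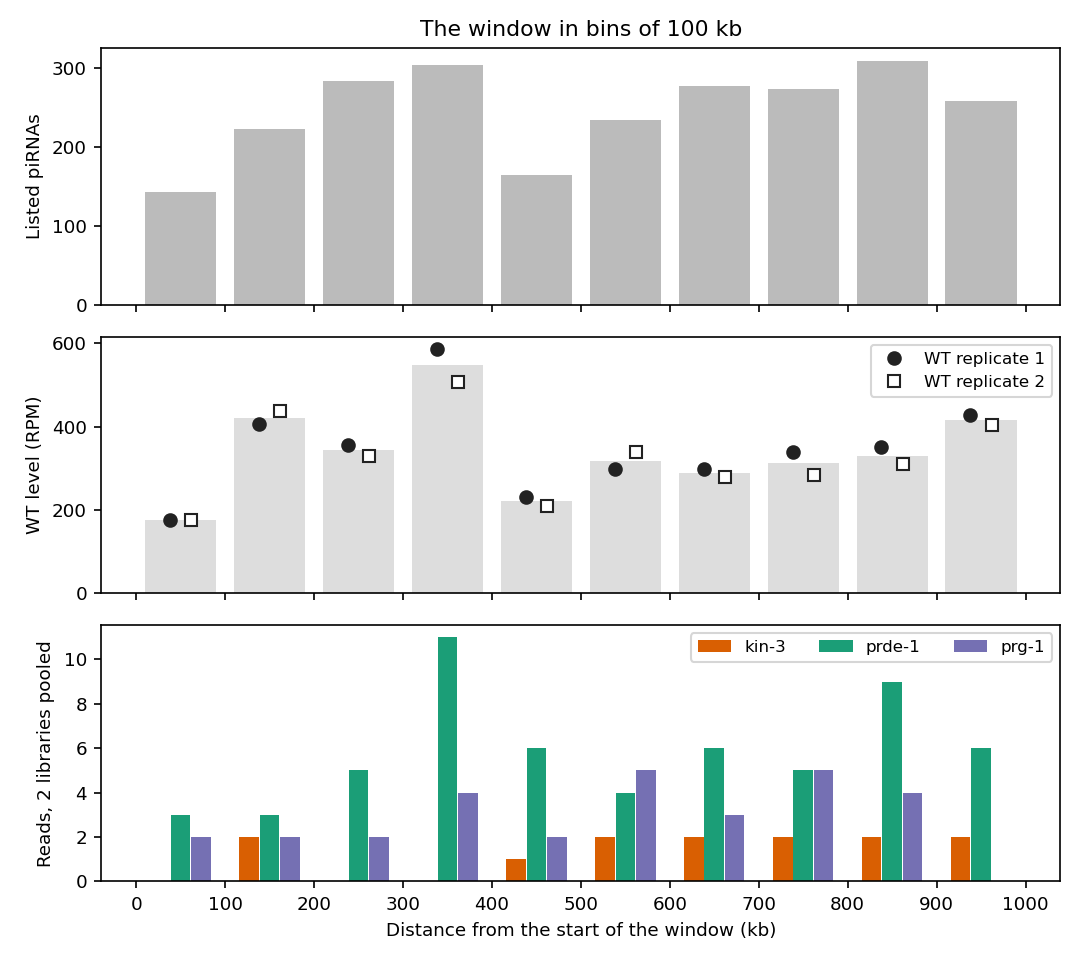
Number of members (top), WT level in RPM (middle, bars for the mean and points for the 2 libraries) and reads of each mutant with its 2 libraries pooled (bottom), per 100 kb against distance from the start of the window (kb). WT means lie between 175 and 547 RPM, and the mutants hold at most 11 pooled reads in a bin.

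The WT level was spread over the whole window. Per 100 kb it ranged from 175 ± 0.404 RPM in the first bin, with 143 members, to 547 ± 55.7 RPM in the fourth, with 304 (SD, n = 2). The highest bin held 3.12 times the lowest. In 50 kb bins, which held 17 to 167 members, that ratio was 17.9, the lowest being the first 50 kb with 17 members. Divided by the number of members, the bins came closer, from 1.03 to 1.89 RPM per member. Every bin was lower in each mutant library than in both WT libraries, with 0 to 2 pooled kin-3 reads, 3 to 11 prde-1 reads and 0 to 5 prg-1 reads.

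Both strands carried piRNAs in nearly equal number and level. The plus strand held 1254 members with 1757 and 1685 RPM in the WT libraries, and the minus strand held 1218 with 1712 and 1588 RPM. The plus strand's share of the level averaged 51.1% in WT and 52.8% in the other 6 libraries (exact two-sided permutation test, p = 0.821, and over the 4 genotypes p = 0.943). Within bins the balance was less even, the plus strand holding 23.8% of the WT level in the fifth bin and 65.7% in the sixth. Neighbouring members shared a strand in 1566 of 2471 pairs (63.4%), and the longest run on 1 strand was 19 members.

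Members stood a median of 203 bases apart, and the WT levels of neighbours showed little rank correlation. The Spearman correlation of the WT means of neighbouring members was -0.00104 over 2471 neighbour pairs, a description across loci of the same libraries. It was -0.0358 for neighbours on the same strand and 0.0576 for those on opposite strands. With 1215 members without a WT read, many values are tied, so a relation at low level could be missed.

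The WT level was spread over many members. The 10 highest held 13.9% of it, against 30.8% at 13-14 Mb, 19.3% at 14-15 Mb, 21.1% at 16-17 Mb and 56.2% beyond 17 Mb. These shares also follow the number of loci in each stretch, and the difference was not tested. The top 100 members held 49.8% and the top 500 held 85.0%. A mean of 50 RPM or more was reached by 4 members, 20 to 50 RPM by 20, 10 to 20 RPM by 47, 5 to 10 RPM by 76 and 1 to 5 RPM by 485.

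Of the 2472 members, 1257 had a read in WT and 627 had one in both WT libraries. The remaining 1215 (49.2%) had none, which the WT depth bounds at 1.33 RPM (3 pooled reads), and 1201 had no read in any of the 8 libraries. The share of loci with a WT read was much the same in the other stretches, at 48.8% of loci at 13-14 Mb, 52.9% at 14-15 Mb, 49.8% at 16-17 Mb and 46.2% beyond 17 Mb. The median WT mean of detected members was 1.09 RPM, and 449 of the 1257 had exactly 1 WT read.

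The 2 WT libraries ranked the members alike. Over the 177 members with at least 10 WT reads, the recovered reads of the pair gave p = 0.180 in a chi-square test, and log2(RPM + 1) correlated with r = 0.739 and rho = 0.672 across members, which are not independent replicates. Of the 71 members with a WT mean of at least 10 RPM, 53 agreed within 1.5-fold and the median fold was 1.28. The widest gap was that of 21ur-4960, at 14.9 and 5.47 RPM. The summed level was 1.06 times higher in WT replicate 1 than in replicate 2 (1.01 to 1.11), a difference just beyond counting error, while in the remaining cluster the ratio was 1.01 (0.982 to 1.04).

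**Figure D3:**
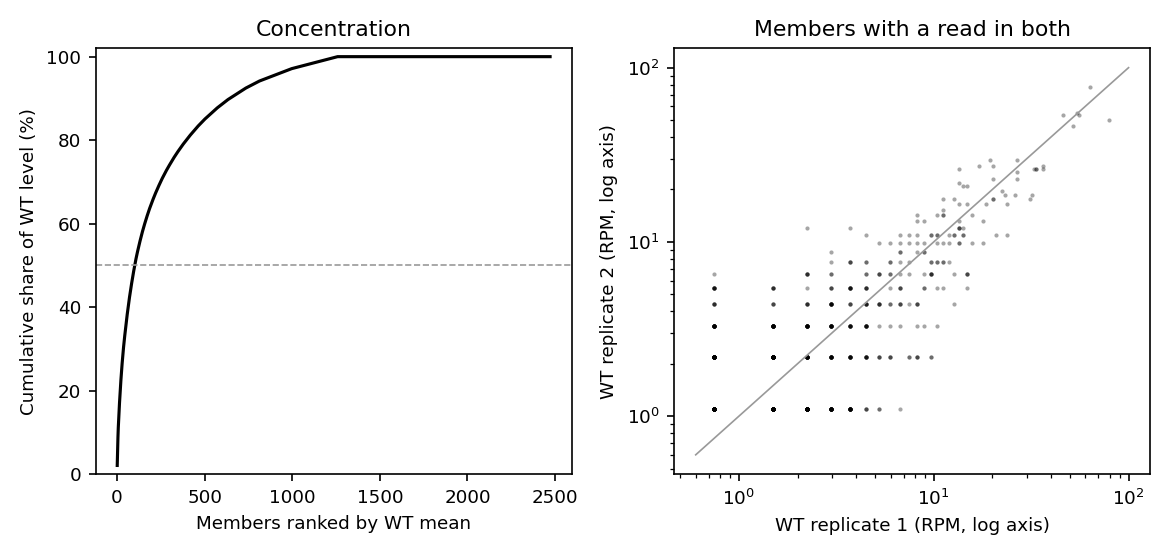
Cumulative share (%) of the WT level against members ranked by WT mean (left, dashed line at 50%), and RPM in WT replicate 1 against replicate 2 for the 627 members with a read in both (right, log axes, line of equal values). The curve reaches 49.8% at 100 members and 85.0% at 500, and members above 10 RPM lie near the line while low ones scatter in steps of single reads.

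The most abundant member was 21ur-7986, at 63.3 and 77.7 RPM in the WT libraries (70.5 ± 10.2, SD, n = 2). It lies on the plus strand at IV:15578410-15578430, outside any coding gene, and it had no read in any of the 6 mutant libraries. Against the floor of 3 pooled reads (3.32 RPM for kin-3, 0.274 RPM for prde-1 and 1.80 RPM for prg-1), it was at least 21.2-fold lower in kin-3, at least 257-fold lower in prde-1 and at least 39.2-fold lower in prg-1. In limma on log2(RPM + 1) its adjusted p was 1.12e-07 in each of the 3 comparisons. This member was picked for its WT level, so a lower mutant level was fixed in advance. Its mutant values are all 0 and the spread rests partly on them, so the p adds no support. The limma p of the other members picked as highest in WT have the same limit.

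Next was 21ur-2875, at 79.7 and 50.4 RPM in WT and 0 in all 6 mutant libraries. It lies on the minus strand at IV:15362983-15363003, antisense within an intron of cpna-4, a gene of the copine family of calcium-dependent membrane-binding proteins. It was at least 19.6-fold lower in kin-3, 237-fold lower in prde-1 and 36.2-fold lower in prg-1 (limma, adjusted p from 2.07e-06 to 2.09e-06). The third, 21ur-5569 at IV:15143620-15143640 on the minus strand outside coding genes, was at 55.9 and 53.7 RPM in WT and 0 elsewhere, at least 16.5-fold, 200-fold and 30.5-fold lower (adjusted p = 1.54e-08 in each).

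The fourth and the sixth member by WT level carried single mutant reads. 21ur-5335, at IV:15174994-15175014 on the plus strand and antisense in an intron of Y40H7A.4, was at 54.4 and 54.7 RPM in WT and had 1 read in prde-1 replicate 2, or 0.178 RPM. The pooled WT level was 597 times that of prde-1, with an interval of 105 to 2.38e+04. 21ur-5503, at IV:15904406-15904426 on the plus strand, was at 52.1 and 46.0 RPM in WT and had 1 read in kin-3 replicate 2, or 1.78 RPM, where the ratio was 44.8 (7.88 to 1.79e+03). Its limma difference from WT was -4.91 on the log2(RPM + 1) scale in kin-3 (SE 0.468, adjusted p = 0.000169).

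The other 5 of the 10 highest members were also at or near 0 in the mutants. They are 21ur-1882 (46.2 and 53.7 RPM in WT), 21ur-3613 (36.5 and 27.4), 21ur-1226 (36.5 and 26.3), 21ur-73 and 21ur-16 (33.5 and 26.3 each). 21ur-73 lies antisense in an intron of pkd-2, which encodes a polycystin-2 channel of male sensory neurons; it had 2 reads in prde-1 replicate 1, and 21ur-16 had 1 there. Every other mutant value of the 5 was 0. Over the 10 highest members, 9 had no kin-3 read, 7 no prde-1 read and 10 no prg-1 read. The highest bounds are those of 21ur-7986, and the lowest bounds were 9.0-fold for kin-3, 115-fold for prde-1 and 16.6-fold for prg-1. The weaker bounds of kin-3 follow from its lower depth.

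Members with a mean of 1 RPM or more over the 8 libraries were tested, as 186 of the 2472 members (7.52%) were. The lowest mean inside was 1.01 RPM and the highest outside 0.975 RPM. These 186 held 63.7% of the WT level. None had a mean of 1 RPM over the 6 mutant libraries, the highest being 0.489 RPM, so every tested member passed through its WT level and had to lie lower in the mutants. All 186 were called lower in each of the 3 mutants and none higher (limma, Benjamini-Hochberg adjusted p under 0.05), with highest adjusted p of 0.0265, 0.00811 and 0.0177. Among all 695 piRNAs tested in the series, 97.8% were called lower in kin-3, 98.3% with prde-1 and 98% with prg-1, so the count for the window stands close to that background. The median log2 difference of the members was -3.16, -3.13 and -3.12, beside -3.06, -3.06 and -3.04 over all tested. Under TMM rescaling the medians over all tested were -2.05, -2.02 and -2.04, and those of the members -2.15, -2.10 and -2.11.

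edgeR's quasi-likelihood test on the recovered reads called 183 of the 186 in kin-3 and all 186 in each other mutant. Over all 695 tested piRNAs it called 675 in kin-3 and 683 in each other mutant. A replicate block in edgeR left 32 calls in kin-3, 72 in prg-1 and 186 in prde-1, beside 125, 259 and 682 of all 695. The sources used here do not say whether replicate numbers pair the libraries. The median log2 difference of the members in edgeR was -6.99 with the block and -7.03 without it in kin-3, and -6.91 and -6.92 in prg-1. Without WT replicate 1 the median limma difference of the 105 members tested was -3.58 in each mutant, beside -3.71 over all 410 piRNAs tested. Without WT replicate 2 that of 114 members was -3.73 in kin-3 and -3.69 in each other mutant, beside -3.77 over all 398. Each of these fits keeps 1 WT library, most residual variances are 0 and the pooled spread is unreliable. Counts of calls are therefore not given for them. Of the 186 members tested with all 8 libraries, 180 had no kin-3 read, 165 no prde-1 read and 178 no prg-1 read.

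Among the weaker calls were 21ur-378 and 21ur-609, members of moderate WT level with 1 kin-3 read. Over all tested members the smallest limma difference in kin-3 was -1.60 and the highest adjusted p was 0.0265. 21ur-378, antisense in an intron of Y105C5A.15, was at 5.21 and 4.38 RPM in WT, while its kin-3 values were 0 and 1.78 RPM. The pooled ratio of WT to kin-3 was 4.40 with an interval of 0.640 to 190, which spans 1, while limma gave -1.79 (SE 0.470, adjusted p = 0.0126). That call was lost in edgeR (adjusted p = 0.102). 21ur-609, at 8.94 and 6.57 RPM in WT, with kin-3 values of 2.93 and 0 RPM, gave -2.13 (SE 0.635, adjusted p = 0.0205), and lost its call without WT replicate 1 (adjusted p = 0.103) and without WT replicate 2 (0.0644).

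Between mutants no member was called in any of the 3 comparisons, against 0% of all tested piRNAs. At an unadjusted p under 0.05, limma had 1 member in kin-3 against prde-1, 1 in kin-3 against prg-1 and 2 in prde-1 against prg-1. Over all 695 tested piRNAs it had 8, 5 and 9. edgeR also called no member after adjustment, beside 3, 0 and 5 of all 695. At an unadjusted p under 0.05 it had 5, 0 and 1 members. Of the 186 tested members, 155 had no read in any mutant. 21ur-4817 was called in kin-3 against prde-1 and in prde-1 against prg-1 after TMM rescaling, beside 7 and 7 of all 695. At a pseudocount of 0.1 it was called in both, beside 1 and 2 of all 695. It had 1 read in each prde-1 library (0.187 and 0.178 RPM) and 0 in kin-3, where 1 read is worth 2.93 and 1.78 RPM. Some fits without 1 library also called members between mutants. Each such fit leaves 1 library in a genotype, so these calls are not listed.

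Reads left in the mutants were scattered over the window. The 13 kin-3 reads fell on 12 members, the 58 prde-1 reads on 49 and the 29 prg-1 reads on 28. Of the 85 members with any mutant read, 73 had a single read. All 12 kin-3 members also had a WT read, as did 42 of the 49 in prde-1 and 21 of the 28 in prg-1. The 14 members with a mutant read and none in WT are bounded in WT by its floor of 1.33 RPM.

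A few members had more than 1 mutant read. 21ur-2716, antisense in an intron of the chemoreceptor gene srv-15, had 3 reads in prde-1 replicate 2 (0.535 RPM) and 0 in replicate 1, against 1.49 and 2.19 RPM in WT. 21ur-5383 had 2 reads in kin-3 replicate 2 (3.56 RPM) and 0 in replicate 1, against 2.98 and 0 RPM in WT, so both genotypes rest on 1 library each. 21ur-4817 (WT 13.4 and 13.1 RPM) was the only member with a read in both prde-1 libraries, at 0.187 and 0.178 RPM. 21ur-4052 (WT 23.1 and 18.6 RPM) was the only one with a read in both prg-1 libraries, at 1.03 and 1.43 RPM, and no member had one in both kin-3 libraries.

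Several other members had 0 to 2 mutant reads each. 21ur-5727 (WT 26.8 and 25.2 RPM) had 1 read in kin-3 replicate 1, or 2.93 RPM, and its limma difference there was -3.77 (SE 0.623, adjusted p = 0.00192). 21ur-1069 (WT mean 13.1 ± 1.49 RPM, SD, n = 2) had 2 reads in prde-1 replicate 1, and 21ur-1267 (8.19 and 13.1 RPM) and 21ur-7244 (8.19 and 9.85 RPM) had 1 each in prg-1 replicate 1. The highest members of the first and the seventh bin, 21ur-3414 (23.8 and 10.9 RPM, sense in an intron of the chemoreceptor gene srt-48) and 21ur-5437 (19.4 and 29.6 RPM), had no mutant read.

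Of the 2472 members, 4 were read in more than 1 mutant. 21ur-4163 was read in kin-3 and in prde-1, 1 of 12 members (8.33%) and 1 of 49 (2.04%). 21ur-4052, 21ur-5166 and 21ur-4943 were read in prde-1 and in prg-1, 6.12% of the prde-1 members and 10.7% of the prg-1 members. The count of members read in both kin-3 and prg-1 was 0, of 12 and 28. With so few of the 2472 members read, these overlaps cannot decide whether the mutants kept the same or different piRNAs. Among all 9742 listed piRNAs, kin-3 had 63 with a read, prde-1 had 227 and prg-1 had 109. Their overlaps are not given here. 21ur-5166 is the highest member inside an exon, at 17.1 and 27.4 RPM in WT, and lies antisense to the 3′ UTR of the chemoreceptor gene srv-14.

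Remaining reads fell partly on the members highest in WT. The 100 members ranked highest by WT replicate 1, 4.05% of the members, held 47.0% of the window's reads in WT replicate 2 (45.2 to 48.8%). They held 36.2% of the prde-1 reads (21 of 58, interval 24.0 to 49.9%), 23.1% of the kin-3 reads (3 of 13, 5.04 to 53.8%) and 20.7% of the prg-1 reads (6 of 29, 7.99 to 39.7%). The interval of prg-1 lies below that of WT, and those of kin-3 and prde-1 overlap it. Ranked by WT replicate 2, an alternative chosen after seeing the data, the shares were 47.7% in WT replicate 1 (46.3 to 49.2%), 31.0% in prde-1 (19.5 to 44.5%), 15.4% in kin-3 (1.92 to 45.4%) and 24.1% in prg-1 (10.3 to 43.5%). With that ranking the pooled intervals of all 3 mutants lie below that of WT, that of kin-3 on 2 of 13 reads. The libraries of a mutant differed, though. Ranked by WT replicate 1, the share was 46.4 and 26.7% in the prde-1 libraries and 16.7 and 27.3% in those of prg-1. Ranked by WT replicate 2, it was 42.9% in prde-1 replicate 1, against 31.0% pooled, and 16.7 and 36.4% in the prg-1 libraries. The pooled intervals leave out this spread, and a difference from WT across libraries was not tested.

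The window's share of the large cluster's reads was close to its share of loci, 30.8%. The window held 28.3 and 27.3% of the cluster's level in the WT libraries. In prg-1 it held 32.7 and 35.5%, with prde-1 24.4 and 26.1%, and with kin-3 22.7 and 42.1%. The 2 kin-3 libraries lie on either side of all others, with 5 of 22 and 8 of 19 reads. WT against the other 6 gave p = 0.679 and the 4 genotypes gave p = 0.552 (exact permutation tests, two-sided for the first). Without kin-3 replicate 1 the exact permutation test over genotypes gave p = 0.00952 and without kin-3 replicate 2 p = 0.0190, so the result rests on the kin-3 libraries.

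**Figure D4:**
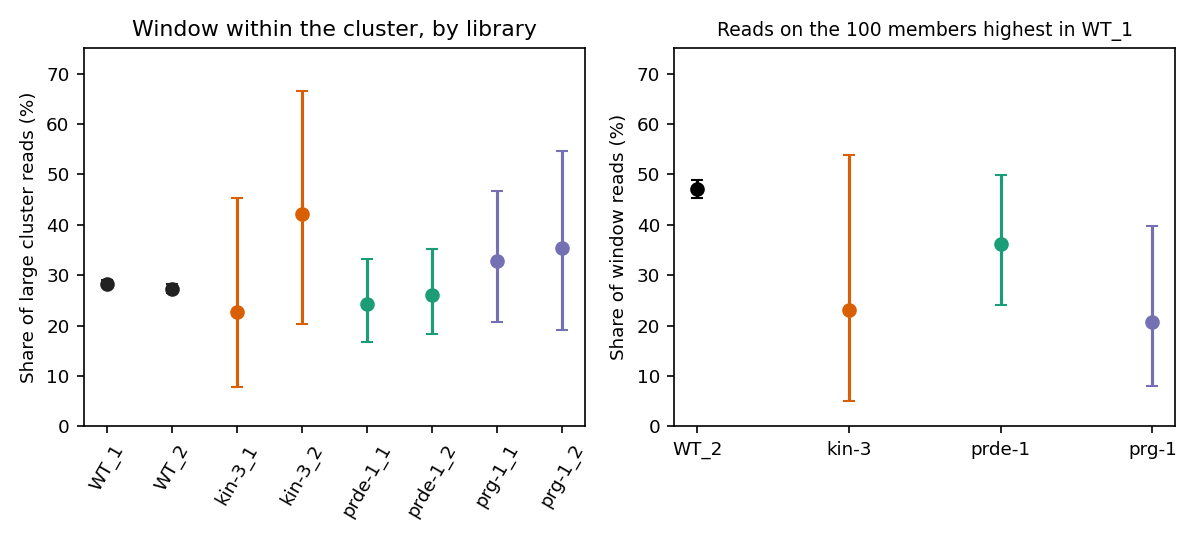
Share (%) of each library's large cluster reads that falls in the window (left), and share (%) of the window's reads on the 100 members highest in WT replicate 1 (right, WT replicate 2 and each mutant with its 2 libraries pooled), with exact 95% binomial intervals as bars. The kin-3 libraries lie at 22.7 and 42.1% with wide intervals, and pooled over libraries the window's share is 27.9% in WT (27.4 to 28.5%) and 31.7% in kin-3 (18.1 to 48.1%).

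Many members overlap a neighbour on the same strand. Such overlaps form 349 groups with 743 members (30.1%), of which 310 are pairs and the largest holds 4. Among the 394 adjacent starts in these groups, 192 are 1 base apart, 8 are 2 bases apart, 151 are 3 bases apart and 43 are 4 or more apart. Offsets of 2 bases are thus 2.03% of the window's pairs. In the other stretches they are 0 to 6.60%, and those of 1 and 3 bases are 41.8 to 47.2% and 33.8 to 43.0%.

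Within a group a single start usually carried the reads. In the 59 groups with at least 10 WT reads, the highest member held a median of 100% of the group's level, and at least 90% in 46 of them. 21ur-5503 had 112 WT reads, while cel-piR-15500, which starts 1 base downstream of it, had 1. 21ur-16 had 69 WT reads, and the 2 members that overlap it, 21ur-10800 and 21ur-10334, had 0. The exceptions include 21ur-3562 with 38 reads beside 21ur-4805 with 17, and 21ur-12739 and 21ur-13856 with 5 each. In 3 of the 59 groups the highest member held under 60%.

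The dominant start lay upstream in 28 of the 49 pairs with unequal levels and downstream in 21. Members of overlapping groups had a WT read in 45.8% of cases, against 53.0% of the 1729 other members, and held 28.5% of the WT level. The sources used here do not say how the authors assigned reads to overlapping loci, so the split within a group is uncertain.

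**Figure D5:**
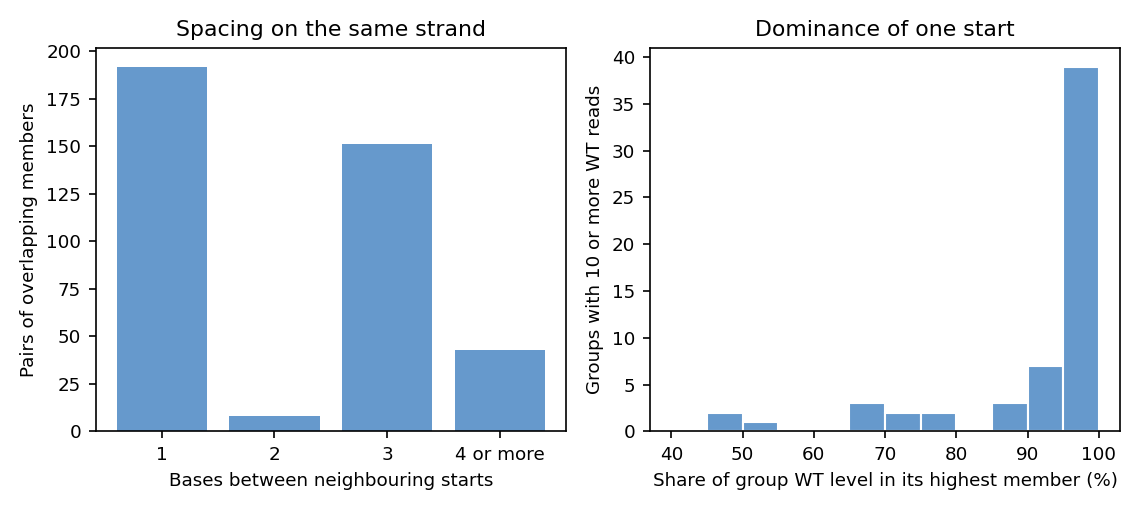
Number of pairs of neighbouring overlapping same-strand members by the distance between their starts in bases (left), and number of groups by the share (%) of the group's WT level in its highest member, for the 59 groups with at least 10 WT reads (right). Distances of 1 and 3 bases (192 and 151 pairs) exceed 2 bases (8), and 46 groups lie at or above 90%.

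Most of the window's piRNA loci lie outside coding genes. This class holds 1781 members (72.0%), in 61.2% of the window's bases, with 2461 ± 64.1 RPM in WT (73.0% of the level). Introns hold 615 members (24.9%), in 26.3% of the bases, with 842 ± 78.7 RPM, and exons 76 (3.07%), in 12.5% of the bases, with 68.4 ± 3.98 RPM (SD, n = 2). That is 29.1 members per 10 kb outside coding genes, 23.4 in introns and 6.09 in exons. The share outside coding genes was 44.9% at 13-14 Mb, 51.7% at 14-15 Mb, 84.4% at 16-17 Mb and 66.8% beyond 17 Mb. The difference between stretches was not tested.

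Each class was nearly absent from each mutant. Members outside coding genes kept 9 kin-3, 39 prde-1 and 23 prg-1 reads, against 5571 WT reads. Intron members kept 4, 15 and 5 reads against 1923, and exon members 0, 4 and 1 against 153.

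Intron members were split evenly by orientation, 305 in sense to the host gene and 310 antisense. The antisense members had the higher summed WT level, 556 and 494 RPM (525 ± 44.2, SD, n = 2), against 341 and 292 RPM in sense (317 ± 34.5). A WT read was less frequent among them, in 52.6% of antisense against 57.4% of sense members. Their level rests in part on a few members, 21ur-2875 (65.0 RPM), 21ur-5335 (54.6 RPM) and 21ur-73 (29.9 RPM). The highest sense member, 21ur-3414, had 17.4 RPM. The difference between orientations was not tested. Without the highest member of each orientation, an alternative added after seeing the data, the means were 460 and 299 RPM.

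Of the 106 coding genes that overlap the window, 63 hold a member and 24 hold 10 or more. The long gene Y105C5A.15 (33.4 kb) holds 88, with 98.3 and 73.4 RPM in WT. cpna-4 holds 34 in 6.72 kb, with 132 and 97.4 RPM, of which a mean of 103 RPM is antisense and 65.0 RPM is 21ur-2875 alone. Among the other hosts, lgc-52, a ligand-gated ion channel gene, holds 28, acr-24, an acetylcholine receptor subunit gene, 27, gcy-25, a receptor guanylyl cyclase gene, 26, and the chemoreceptor gene srt-50 23.

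Few stretches of the window lack members. Only 12 gaps exceed 5 kb, with a summed length of 173.9 kb. The longest, 45.8 kb at IV:15005536-15051362, holds no annotated piRNA gene and 7 whole coding genes. Among these are qars-1 (glutaminyl-tRNA synthetase), fcd-2 (the FANCD2 homologue of DNA crosslink repair), eef-1B.2 (a translation elongation factor subunit) and hrpu-1 (an hnRNP U-like protein). The second, 35.5 kb at IV:15441553-15477096, holds 5 annotated piRNA genes that are not among the members, and 4 whole coding genes, among them gtf-2H4 (a TFIIH subunit) and ntl-11 (a CCR4-NOT subunit). The first bin, with the longest gap, and the fifth, with the second, had the fewest members (143 and 164) and the 2 lowest WT levels, 175 and 220 RPM.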

How the data were processed

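Small RNAs of whole worms were measured in 8 libraries of 4 genotypes. Per the labels' protocols, small RNAs were enriched from total RNA, treated with PIR-1, ligated to adaptors and amplified by PCR. No molecular identifiers are mentioned, so intervals cover counting error only. The submitters' processing notes name cutadapt 1.18 and Bowtie 1.2.1.1. For their settings, the genome build and the handling of multiply matching reads, the sources used here give nothing. A table of 9742 piRNAs was deposited, with values that the authors gave in RPM, that is, reads divided by a library total and multiplied by 1000000. All positive values (100%) were whole multiples of their library's smallest value within a tolerance of 0.01 reads, and 1000000 divided by that value gave the scaling total. What that total covers is not given, and the make-up of that pool was not analysed here.

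Positions were compared with the Ensembl release 115 annotation of WBcel235. Position and strand matched for 9620 of the 9742 piRNAs, which gave the names, and the same annotation gave host genes. A locus inside any exon of a coding gene counted as exonic, and otherwise within a coding gene as intronic. No genome sequence was used here, so motifs and first bases were not searched, and no sequence is shown.

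limma 3.58.1 (R 4.3.3, trended prior) was run on log2(RPM + 1) over all 695 piRNAs with a mean of at least 1 RPM, with genotype as the only factor. P-values were adjusted by Benjamini-Hochberg over all 695, with a threshold of 0.05. A fold change on this scale understates the change of low members, and the fit shares its spread across genotypes at 0, so a small SE can rest on zeros. edgeR 4.0.16 on the recovered reads, other pseudocounts (0.1 and 5), other filters, TMM factors (computed over all listed piRNAs), a replicate block, fits restricted to 2 genotypes and the omission of each library were alternatives. Python 3.11.15 with scipy 1.17.1 gave exact tests and intervals.

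Members and lists were chosen with earlier results of these data known. Named members follow a rule: the 10 highest in WT, per mutant the 5 with the most reads, the 5 largest falls with a mean of at least 10 RPM and any tested member not called lower, any called higher, and the highest of each 100 kb bin. The others named (21ur-4960, 21ur-4163, 21ur-3562, 21ur-4805, 21ur-12739, 21ur-13856, 21ur-10800, 21ur-10334, cel-piR-15500 and the host genes) were chosen after their values were seen. Whether replicate numbers pair the libraries is not given in the sources used here.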

Additional observations from a re-analysis of the deposited data

How the results depend on the processing

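Against WT, 0 of the 1068 alternative values of named members reversed in direction. These members passed the filter through their WT level, so a lower mutant level was fixed in advance. With no filter, members called against WT (in the order kin-3, prde-1, prg-1) were 618, 619 and 615 of 1271 tested. Over all piRNAs 2214, 2216 and 2208 of 4878 were called there. With a minimum mean of 10 RPM, 6, 6 and 6 of 6 tested members were called, beside 27, 27 and 27 of 31 over all piRNAs. The number of members tested moved with the filter, and with no filter 48.6, 48.7 and 48.4% of those tested were called. Leaving out each library gave 104 to 215, 105 to 215 and 105 to 215 of 105 to 216 tested, 98.6 to 100% of them. The sources used here do not say whether replicate numbers pair the libraries. The correlation of deviations was -0.0286 to 0.0741. It cannot decide this, since 599 to 640 of the 695 piRNAs had no read in a pair of mutants. With replicate numbers as a block, limma called 186 members in each comparison, beside 680, 682 and 682 of all 695. With that block edgeR called 32, 186 and 72 members, beside 125, 682 and 259 of all 695. Between mutants, 1 member (21ur-4817) was called in kin-3 against prde-1 and in prde-1 against prg-1 under TMM. Over all 695 piRNAs 7 and 7 were called there. At a pseudocount of 0.1 the same member was called in both, beside 1 and 2 of all 695. Some fits without 1 library also called members, each with 1 library left in a genotype. Percent of WT left was 0.467%, 2.20% and 0.989% under TMM, whose factors were 2.19 and 2.49 in WT and 0.186 and 0.150 in prde-1. TMM takes most piRNAs as unchanged, so these values cannot decide the order of the mutants. In RPM the percent left was 0.438% in kin-3 and 0.161% in prde-1 without the most abundant member. Leaving out libraries it was 0.416 to 0.441%, 0.153 to 0.162% and 0.466 to 0.551%. The exact p of level and number was 0.0476 to 0.143 for WT against the others, 0.143 being the smallest that 1 WT library allows, and over genotypes 0.00952 to 0.0190 and 0.00952 to 0.0286. For the share of the cluster it was 0.571 to 1.0 and 0.00952 to 0.819. The highest bin over the lowest was 17.9 in 50 kb bins, and antisense intron members had 460 RPM without the highest (added after seeing the data). Of 1068 alternative values of named members, 17 lost their call, 10 of them under edgeR with the block. The cause of these changes was not tested. limma gave no fit to 2 mutants alone, where 599 to 640 of the 695 piRNAs had a variance of 0. edgeR on 2 mutants alone, added after seeing the data, called 0 of 14 to 26 members with a read, with 0 at an unadjusted p under 0.05. The motif alternative was not run. Depth limits the kin-3 values most: 3 pooled reads are 3.32 RPM there.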
